A study of Homo sapiens with 6 samples.

Results

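Phospholipase C enzymes cut the membrane lipid phosphatidylinositol bisphosphate into inositol trisphosphate, which opens calcium channels of the endoplasmic reticulum, and diacylglycerol, which recruits protein kinase C and other proteins to the membrane. The isoforms differ mainly in what turns them on. The beta class answers G protein-coupled receptors through the Gq alpha subunits and, for some of its isoforms, G protein beta-gamma dimers. The gamma class answers tyrosine kinases, the delta and eta classes are sensitive to calcium, and the epsilon isoform is a target of Ras. Each isoform is a separate gene, so a change in 1 mRNA need not be shared by the others. The genes described here are PLCB1, PLCB2, PLCB3 and PLCB4 of the beta class, PLCG1 and PLCG2 of the gamma class, PLCD1 and PLCD3 of the delta class, PLCE1 and PLCH1, 10 of the 56478 gene rows of the table. They were chosen by symbol, with earlier results of these data known. PLCB4 was chosen by its rise in the very comparison described below, so its own values are a description and carry no test, and the other isoforms serve to ask whether that rise belongs to 1 isoform or to the family.

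RNA was sequenced from BT20, an established human breast cancer cell line that the labels call triple negative, kept in a medium with fetal bovine serum. One group of 3 libraries (shControl) carried the pLK0 vector with a control short hairpin RNA, and the other group of 3 libraries (shCK5-22) carried the same type of vector with a hairpin directed at cytokeratin 5, the keratin filament protein that basal cells make from KRT5. Neither group was treated otherwise, so both share the cell line, the vector and the medium. The knockdown arm rests on 1 hairpin in 1 line, so effects of the loss of cytokeratin 5 and effects of this hairpin on other transcripts cannot be told apart.

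Counts that named a gene summed to between 47622067 and 65429616 per library, and 18008 genes passed the filter on low counts, all 10 isoforms among them. Levels are given as CPM, the usual count scaled by library size, and a count of 3 corresponds to between 0.0459 and 0.063 CPM. KRT5 fell from 230.7, 246.6 and 244.3 CPM in shControl to 21.05, 22.7 and 24.09 CPM in shCK5-22, 10.7-fold. Replicate 1 of shCK5-22 stood apart: the chi-square statistic per degree of freedom against the other libraries of its group was 33.7 and 19.8, where the remaining pair of that group had 5.08 and the shControl pairs had 3.47 to 4.88. Summed epithelial markers were at 7828 to 8269 CPM in shControl and 7195 to 7725 CPM in shCK5-22, and 2 of 5 were called lower. Of the receptors that define the labelled tumour type, PGR had at most 4 counts in a library, while ESR1 averaged 14.5 and 11.5 CPM and ERBB2 120 and 83.8 CPM in shControl and shCK5-22. Some widely expressed genes such as PPP3R1 are listed at 0 in all 6 libraries, so a listed 0 is not read as absence of the mRNA.

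The beta isoforms are close relatives, and their mRNAs have to be told apart by reads. The stretch below shows how far that is possible where PLCB4 is most like the others. It was taken from the coding sequences of GENCODE release 29 on GRCh38. Windows of 60 bases were taken at each codon of PLCB4 and matched without gaps to each other beta gene. The window shown has the most bases equal to PLCB4, summed over these best matches. Capitals mark the 40 bases that are equal in all 4, and each window lies within 1 exon.
PLCB4, chr20:9409118-9409177, plus strand, coding bases 1900 to 1959: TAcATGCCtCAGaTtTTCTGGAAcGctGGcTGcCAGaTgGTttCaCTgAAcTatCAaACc
PLCB1, chr20:8729111-8729170, plus strand, coding bases 1825 to 1884: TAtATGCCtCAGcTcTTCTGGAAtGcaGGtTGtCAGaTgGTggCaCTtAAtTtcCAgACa
PLCB2, chr15:40294940-40294999, minus strand, coding bases 1843 to 1902: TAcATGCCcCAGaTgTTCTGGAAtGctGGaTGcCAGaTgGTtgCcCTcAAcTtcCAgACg
PLCB3, chr11:64262013-64262072, plus strand, coding bases 1975 to 2034: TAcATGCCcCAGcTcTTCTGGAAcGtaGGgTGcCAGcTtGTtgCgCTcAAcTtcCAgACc
Even here, PLCB1 had 45, PLCB2 had 49 and PLCB3 had 46 bases equal to PLCB4, and the longest equal runs were 9, 12 and 10 bases. Over whole annotated transcripts, the longest stretch that PLCB4 shared exactly with another of the 10 genes was 18 bases, with PLCB2, and the lowest was 13 bases. No run of 50 bases was shared between any pair of the 10 genes. PLCB4 also overlapped no other annotated gene on either strand.

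PLCB4 encodes a Gq-activated isoform best known from cerebellar Purkinje cells and the retina. The gene lies on chromosome 20 (9068763 to 9481242, plus strand). In shControl the replicates had 4.62, 5.58 and 4.61 CPM, in the order of their numbers, and in shCK5-22 they had 25.1, 26.5 and 24.9 CPM. The groups did not overlap, and the lowest knockdown library had more than any control library by a margin far wider than the spread within either group. Group means were 4.94 ± 0.557 and 25.5 ± 0.834 CPM (SD over 3 libraries), which is 5.14-fold, with a log2 fold change of 2.36 (95% interval 2.20 to 2.53). Because PLCB4 was chosen by this rise, the interval only describes the fit and is no support for the rise. Between 222 and 364 counts in shControl and between 1318 and 1638 counts in shCK5-22 stand behind these values. Without shCK5-22 replicate 1 the log2 fold change was 2.37, and over the 15 alternatives tried it lay between 2.31 and 2.46.

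**Figure D1:**
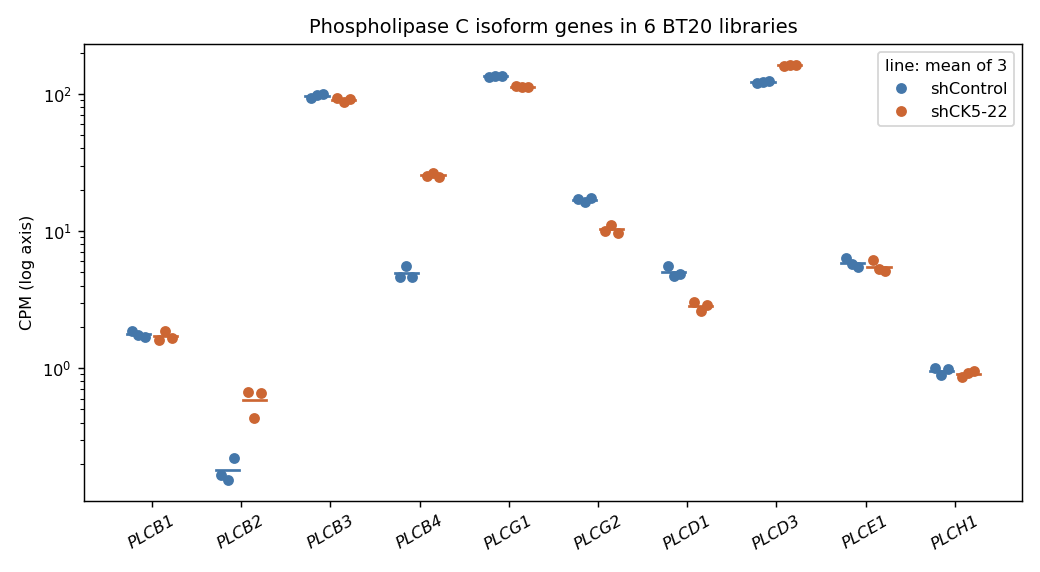
Levels of the 10 phospholipase C isoforms in each library, in CPM on a log axis, with one point per library and a bar at the mean of each group of 3. PLCB4 moves from about 5 to about 25 CPM with no overlap, PLCB2 rises from below 0.3 CPM, and the other isoforms shift little on this scale.

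The other 9 isoforms did not share 1 direction. Of these, 2 were higher (PLCB2 and PLCD3), 4 were lower (PLCB3, PLCG1, PLCG2 and PLCD1) and 3 were not called (PLCB1, PLCE1 and PLCH1) at an adjusted p under 0.05 in edgeR's quasi-likelihood test. The background is wide: 34.2% of all genes tested were called in either direction, 17.4% higher and 16.8% lower. The median log2 fold change of the 9 was -0.08, beside -0.01 over all genes tested. The groups did not overlap for 6 of the 9, where 45.1% of all genes tested had no overlap. Leaving out shCK5-22 replicate 1 gave the same counts of isoforms called higher, called lower and not called.

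PLCB1, which answers Gq in brain and many other tissues, is the isoform nearest to PLCB4 on the genome (chromosome 20, 8077251 to 8968360, plus strand). Its level was 1.87, 1.75 and 1.68 CPM in shControl and 1.59, 1.87 and 1.67 CPM in shCK5-22. The groups overlapped, and the log2 fold change was -0.04 (95% interval -0.40 to 0.31, adjusted p = 0.88).

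PLCB2, the isoform known for its place in blood cells and taste cells, had the second highest log2 fold change of the 10 isoforms, at a low level. It lies on chromosome 15 (40278176 to 40307935, minus strand). It had 8, 10 and 14 counts in shControl, or 0.166, 0.153 and 0.222 CPM, and 44, 26 and 35 counts in shCK5-22, or 0.675, 0.435 and 0.662 CPM. Every knockdown library was above every control library, though all were below 1 CPM. The level was 3.23-fold higher, with a log2 fold change of 1.69 (95% interval 0.88 to 2.51, adjusted p = 0.0018). This interval overlaps that of PLCB4 (2.20 to 2.53), while those of the 8 other isoforms lie below that of PLCB4. PLCB2 was called under all 14 alternatives that tested it, with adjusted p between 0.000463 and 0.0124. The summed level of 10 leukocyte markers was 2.24 to 2.98 CPM in shControl and 3.74 to 4.25 CPM in shCK5-22. Of these 10 markers, 9 were below 1 CPM in every library, CD3D and CD68 were listed at 0, PTPRC averaged 0.404 and 0.238 CPM, and 1 of the 4 tested was higher, ITGAM at 0.928 and 2.23 CPM. Their part in the PLCB2 result was not tested.

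PLCB3, a widely expressed isoform that responds strongly to G protein beta-gamma dimers, was the most abundant beta isoform (chromosome 11, 64251523 to 64269150, plus strand). Its level was 93.9, 97.9 and 99.4 CPM in shControl and 92.9, 86.8 and 92.1 CPM in shCK5-22. The groups were adjacent and did not overlap. The log2 fold change was -0.10 (95% interval -0.18 to -0.02, adjusted p = 0.0404). The call was lost in 6 of 15 alternative fits. These were upper quartile scaling (adjusted p = 0.055), DESeq2 (adjusted p = 0.0622) and 4 fits with a library left out. The libraries were shControl replicate 2 (0.111), shControl replicate 3 (0.181), shCK5-22 replicate 2 (0.194) and shCK5-22 replicate 3 (0.0658). At a threshold of 0.01 the call was lost as well.

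Both gamma isoforms, which bind phosphorylated receptors and adaptors through SH2 domains, were lower in shCK5-22. PLCG1, the widely expressed gamma isoform (chromosome 20, 41136960 to 41196801, plus strand), had 133.7, 134.1 and 134.7 CPM in shControl and 113.7, 112.3 and 113.0 CPM in shCK5-22. The libraries of each group lay close together, and the difference was 1.19-fold (log2 fold change -0.25, 95% interval -0.31 to -0.18, adjusted p = 1.64e-06). Exons of PLCG1 overlap exons of ZHX3 on the opposite strand. ZHX3 had 3388 to 4845 counts per library and was not called (log2 fold change 0.03). Among further overlapping genes, PLCG1-AS1 on the opposite strand had 18 to 60 counts per library and was not called (log2 fold change -0.71). PLCG2, the isoform of B cells, platelets and other blood cells (chromosome 16, 81739097 to 81962693, plus strand), had 17.2, 16.1 and 17.4 CPM in shControl and 10.06, 11.04 and 9.71 CPM in shCK5-22. It fell 1.65-fold (log2 fold change -0.72, 95% interval -0.87 to -0.57, adjusted p = 1.03e-07). Exons of PLCG2 overlap those of AC099524.1 on the same strand, which has no counts listed under that name. Of the leukocyte markers, ITGAM was higher and PTPRC, at 0.404 and 0.238 CPM, was not called, and their part in the PLCG2 result was not tested.

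The delta isoforms went in opposite directions. PLCD1, which anchors to its lipid substrate through a pleckstrin homology domain and is known in skin and hair follicle (chromosome 3, 38007496 to 38029762, minus strand), had 5.54, 4.72 and 4.87 CPM in shControl and 3.04, 2.61 and 2.88 CPM in shCK5-22. It fell 1.77-fold (log2 fold change -0.82, 95% interval -1.08 to -0.56, adjusted p = 2.51e-05), the lowest estimate among the 10 isoforms, with an interval that overlaps that of PLCG2. PLCD3 (chromosome 17, 45108967 to 45133354, minus strand) had 119.3, 122.1 and 124.9 CPM in shControl and 158.5, 163.0 and 162.2 CPM in shCK5-22. It rose 1.32-fold (log2 fold change 0.40, 95% interval 0.34 to 0.47, adjusted p = 1.99e-09). The exons of PLCD3 overlap those of NMT1 and ACBD4 on the opposite strand, and whether the counts used strand is not known. NMT1, with 9561 to 13868 counts per library, had a log2 fold change of 0.11, and ACBD4, with 318 to 442, had -0.27.

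PLCE1, the epsilon isoform, which also carries a guanine nucleotide exchange domain (chromosome 10, 94030812 to 94332823, plus strand), had 6.30, 5.76 and 5.45 CPM in shControl and 6.13, 5.25 and 5.13 CPM in shCK5-22. The groups overlapped, with a log2 fold change of -0.08 (95% interval -0.31 to 0.15, adjusted p = 0.63). PLCH1, an eta isoform best known from neurons (chromosome 3, 155375580 to 155745067, minus strand), had 0.999, 0.889 and 0.983 CPM in shControl and 0.859, 0.92 and 0.946 CPM in shCK5-22. Its groups overlapped as well, with a log2 fold change of -0.07 (95% interval -0.55 to 0.40, adjusted p = 0.843).

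**Figure D2:**
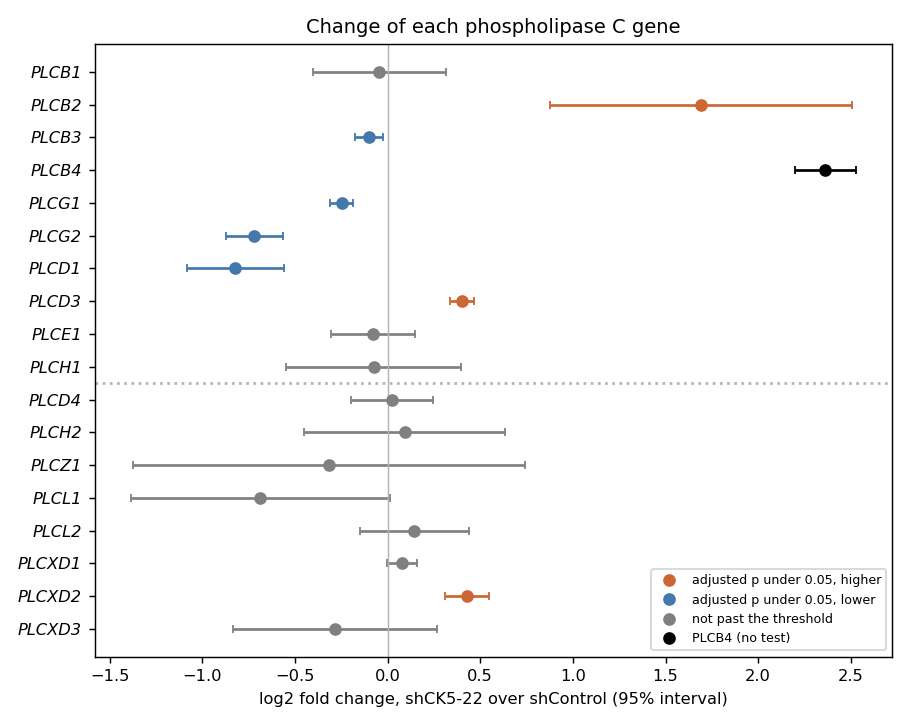
Log2 fold change in shCK5-22 against shControl with its 95% interval as a horizontal line, for the 10 isoforms above the dotted line and 8 further genes of the family below it, coloured by call, with PLCB4 in black because it was chosen by its rise and its value is a description. PLCB2 has the widest interval of the 10 isoforms, from 0.88 to 2.51, which overlaps that of PLCB4, from 2.20 to 2.53. The intervals of PLCB1, PLCE1 and PLCH1 span no change.

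The ratio of PLCB4 to each isoform within a library needs no scaling between libraries. Since PLCB4 was chosen by its rise, this ratio differs between the groups by about the change of PLCB4 itself for any isoform that did not move, so the values are a description and no separate support. The log2 ratio of PLCB4 to PLCB1 was 1.30, 1.67 and 1.46 in shControl and 3.98, 3.82 and 3.90 in shCK5-22, a difference of 2.42. For PLCB3 the difference in the log2 ratio was 2.47, for PLCG1 2.62, for PLCG2 3.10, for PLCD1 3.20, for PLCD3 1.97, for PLCE1 2.46 and for PLCH1 2.45. The log2 ratio of PLCB4 to PLCB2 averaged 4.79 ± 0.404 in shControl and 5.46 ± 0.405 in shCK5-22, a difference of 0.67 with groups that came close together. That difference was 0.44 without shCK5-22 replicate 2, 0.47 without shControl replicate 3 and 0.87 without shControl replicate 2.

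Levels of different genes were compared as CPM per kilobase of annotated exon. On this length-scaled level PLCB3 led in shControl at 19.6, followed by PLCD3 at 18.1 and PLCG1 at 13.9. PLCG2 at 1.26, PLCD1 at 1.17 and PLCB4 at 0.716 ± 0.0807 formed the middle of the order. PLCE1 at 0.452, PLCH1 at 0.133, PLCB1 at 0.101 and PLCB2 at 0.0246 were lowest. In shCK5-22 the length-scaled level of PLCB4 was 3.70 ± 0.121, which moved it from place 6 to place 4 of 10. There it stood below PLCG1 at 11.7, PLCB3 at 18.3 and PLCD3 at 23.9, and above PLCG2 at 0.765 and PLCD1 at 0.658. PLCE1 was then at 0.426, PLCH1 at 0.127, PLCB1 at 0.0983 and PLCB2 at 0.0804. With the longest coding transcript as the length, PLCB1 and PLCH1 changed places.

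PLCB4 made up 1.29% ± 0.144 of the summed length-scaled level of the 10 isoforms in shControl and 6.19% ± 0.247 in shCK5-22 (SD, n = 3 each). Within the beta class, its share of the length-scaled level was between 3.21% and 3.92% in shControl libraries and between 16.1% and 17.9% in shCK5-22 libraries. PLCB3 kept most of the rest in both groups. In plain CPM, without length scaling, the summed level of the 9 other isoforms was 379 to 390 in shControl and 384 to 388 in shCK5-22. These ranges overlap, though 2 of the 9 isoforms were called higher and 4 lower. With PLCB4 added the sum was 384 to 394 and 411 to 413 CPM. These are mRNA levels of bulk libraries, in which more mRNA per cell and more cells with the mRNA cannot be told apart.

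**Figure D3:**
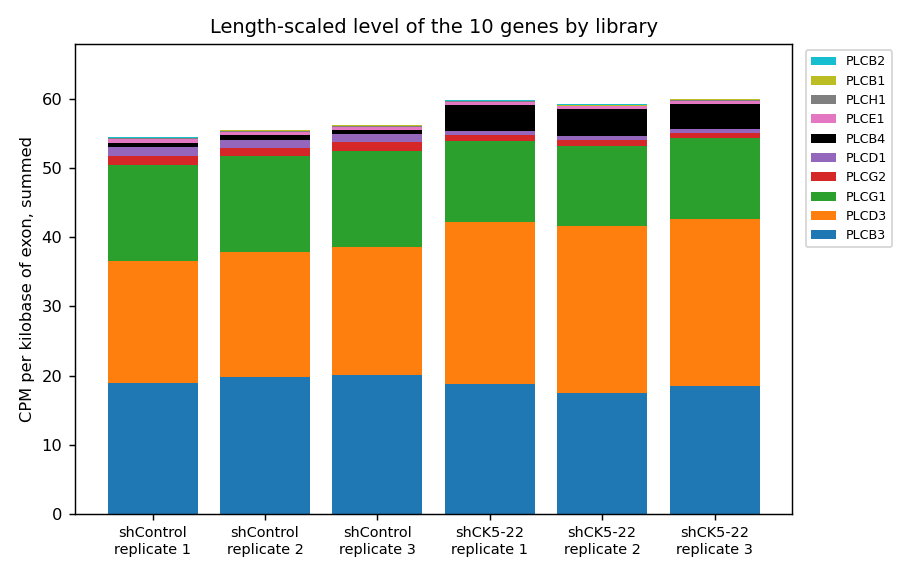
Length-scaled levels (CPM per kilobase of exon) of the 10 isoforms stacked in 1 bar per library, with 3 shControl libraries on the left and 3 shCK5-22 libraries on the right. PLCB3, PLCD3 and PLCG1 fill most of every bar, and the black segment of PLCB4 grows from 1.29% to 6.19% of the bar on average.

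A further 8 genes of the wider family were tested: the active isoforms PLCD4, PLCH2 and PLCZ1, the catalytically inactive PLCL1 and PLCL2, and PLCXD1, PLCXD2 and PLCXD3, which hold only the X part of the catalytic domain. Of these, 1 was higher, none was lower and 7 were not called. PLCXD2 rose from 25.7 to 34.6 CPM (log2 fold change 0.43, adjusted p = 4.19e-06), and its exons overlap those of PHLDB2 on the same strand, which had a log2 fold change of 0.17. PLCD4 had a log2 fold change of 0.02, PLCH2 of 0.09, PLCZ1 of -0.32, PLCL1 of -0.69 (adjusted p = 0.125), PLCL2 of 0.14 and PLCXD1 of 0.08. PLCXD3 had 22.6, 19.7 and 20.4 CPM in shControl and 22.1, 13.3 and 15.9 CPM in shCK5-22, so replicate 1 of shCK5-22 lay among the controls (log2 fold change -0.28, adjusted p = 0.388). Without that library PLCXD3 was called lower, with a log2 fold change of -0.52 and an adjusted p of 5.2e-06, and PLCXD1 was called higher (adjusted p = 0.0392).

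The genes that work above and below phospholipase C were taken as 10 further lists, by role. Together with the 8 relatives they hold 182 genes, of which 136 were tested, 42 were higher and 25 were lower. That is 49.3% called, beside 34.2% of all genes tested, with a median log2 fold change of 0.00. The lists were chosen with earlier results of these data known, so this share is a description only. Without shCK5-22 replicate 1 the counts were 44 higher and 34 lower. For genes with pseudogenes or close paralogs, such as GNAQ, the split of reads between copies is not known.

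Upstream of the beta isoforms, the Gq class alpha subunits moved apart. Of the 3 tested of 4, 1 was higher and 1 was lower, with a median log2 fold change of -0.03. GNAQ, the alpha subunit after which Gq is named (chromosome 9, 77716087 to 78031458, minus strand), had 43.1, 41.7 and 42.9 CPM in shControl and 20.01, 19.6 and 20.04 CPM in shCK5-22. It fell 2.14-fold with no overlap (log2 fold change -1.10, adjusted p = 2.97e-13). GNA15, a more promiscuous alpha subunit known from blood cells and epithelia, rose from 24.3 to 32.6 CPM (log2 fold change 0.42, adjusted p = 1.35e-06). GNA11, a close relative of GNAQ in sequence and function, averaged 154 CPM in shControl and 151 CPM in shCK5-22 and was not called.

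Of 46 receptors that couple to Gq, 26 were tested, 5 were higher and 9 were lower, with a median log2 fold change of -0.18, and 11 were listed at 0. GRPR, the receptor of gastrin-releasing peptide, rose from 0.739 to 1.76 CPM (log2 fold change 1.25, adjusted p = 0.000269), and the prostaglandin F receptor PTGFR from 1.15 to 2.33 CPM (log2 fold change 0.99, adjusted p = 0.000968). P2RY6, a receptor for uridine diphosphate, fell from 33.9 to 17.3 CPM (log2 fold change -0.97, adjusted p = 1.1e-10). Among the RGS proteins that shorten Gq signals, 4 of 8 were tested, 2 were higher and none was lower, with a median of 0.29. RGS2, a selective inhibitor of Gq, rose from 2.59 to 3.67 CPM (log2 fold change 0.50, adjusted p = 0.00659).

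Of 13 G protein beta and gamma subunits, 9 were tested, 4 were higher and 2 were lower, with a median log2 fold change of 0.18. GNG11, a gamma subunit, had 1.41, 2.12 and 1.36 CPM in shControl and 5.64, 5.92 and 5.07 CPM in shCK5-22, a clear separation (log2 fold change 1.75, adjusted p = 1.53e-08). GNB4, a beta subunit, rose from 19.3 to 25.5 CPM (log2 fold change 0.40). GNG4 fell from 2.04 to 1.43 CPM (adjusted p = 0.026), a call lost without shControl replicate 3 (0.158), shCK5-22 replicate 2 (0.0535) or shCK5-22 replicate 3 (0.0659). Among 13 kinases and adaptors of the gamma isoforms, 7 were tested, 3 were higher and none was lower, with a median of 0.12. TXK, a Tec family kinase, rose from 2.11 to 3.48 CPM (log2 fold change 0.73), the adaptor GRB2 from 159 to 177 CPM (0.15) and the Src family kinase LYN from 71.6 to 78.5 CPM (0.13). The call of LYN was lost without shControl replicate 1 (adjusted p = 0.0577).

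The 18 genes that supply the lipid substrate were all tested, and none was higher and 3 were lower, with a median log2 fold change of -0.05. That is 16.7% called, beside 34.2% of all genes. PITPNM3 and PITPNM2, which encode phosphatidylinositol transfer proteins, had log2 fold changes of -0.25 and -0.20, and PIP4K2B, a phosphoinositide kinase, had -0.17. The synthase CDIPT and the 3 type I phosphatidylinositol phosphate kinases were among the 15 not called. Between 5 and 6 genes of the list were lower with scaling by library size only, a filter of at least 1 CPM, a replicate block, halved counts or without shCK5-22 replicate 1.

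On the inositol trisphosphate side, 16 of 17 receptor and metabolism genes were tested, 7 were higher and none was lower, with a median log2 fold change of 0.20. ITPKA, a kinase that phosphorylates inositol trisphosphate, rose from 2.62 to 3.94 CPM (log2 fold change 0.59, adjusted p = 0.00643). Its call was lost without shControl replicate 3 (adjusted p = 0.0605). IMPA1, an inositol monophosphatase, rose from 13.6 to 18.5 CPM (log2 fold change 0.44), and ITPR2, a calcium channel gated by inositol trisphosphate, from 16.2 to 21.4 CPM (0.40). Of 24 genes of calcium entry and the calcineurin-NFAT branch, 20 were tested, 7 were higher and 6 were lower, with a median of 0.10. NFATC4, a calcineurin-dependent transcription factor, fell from 3.48 to 1.46 CPM (log2 fold change -1.25, adjusted p = 9.53e-06), and the kinase CAMK2G from 59.9 to 43.0 CPM (-0.47). ORAI2, a subunit of store-operated calcium channels, rose from 9.96 to 16.9 CPM (0.76).

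On the diacylglycerol side, 14 of 19 target genes were tested, 7 were higher and 3 were lower, with a median log2 fold change of 0.06. The largest rise was in UNC13A, a diacylglycerol-binding priming factor of vesicle release best known from synapses (chromosome 19, 17601328 to 17688365, minus strand). It had 25 to 26 counts per library in shControl, or 0.520, 0.399 and 0.412 CPM, and 140 to 219 counts in shCK5-22, or 3.36, 2.89 and 2.65 CPM. That is 6.75-fold higher (log2 fold change 2.75, adjusted p = 9.13e-10). Summed neuronal markers were at 4.74 to 5.30 CPM in shControl and at 3.56 to 4.52 CPM in shCK5-22, with SNAP25 listed at 0, 1 of 2 tested lower and none higher. CHN1, a Rac GTPase-activating protein with a diacylglycerol-binding domain, had 3.16, 2.81 and 3.17 CPM in shControl and 12.2, 12.2 and 11.3 CPM in shCK5-22 (3.92-fold, adjusted p = 1.32e-12). Its paralog CHN2 went the other way, from 2.15 to 1.18 CPM (log2 fold change -0.86, adjusted p = 0.000619).

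Among genes that remove diacylglycerol, 11 of 12 were tested, 5 were higher and 1 was lower, with a median log2 fold change of 0.03. These include the diacylglycerol kinases DGKZ, from 137 to 188 CPM (log2 fold change 0.45, adjusted p = 1.1e-10), DGKE, from 5.85 to 7.43 CPM (0.35), and DGKD, from 79.3 to 99.5 CPM (0.33). No list as a whole was tested, and the counts are read only beside the shares of all genes given above.

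**Figure D4:**
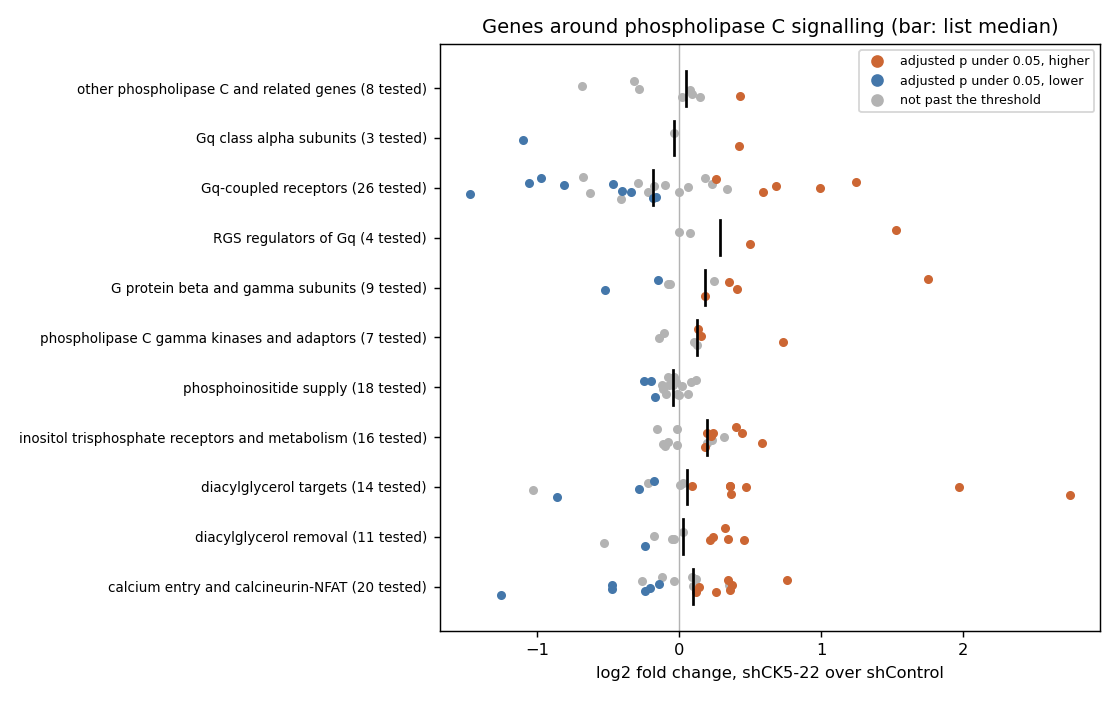
Log2 fold change of each tested gene of the lists around phospholipase C, one row per list and one point per gene, with genes called higher, called lower and not called in different colours and a black bar at the median of the list. The medians lie between -0.18 for the Gq-coupled receptors and 0.29 for the RGS proteins, and UNC13A, CHN1 and GNG11 lie farthest to the right.

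The tested genes around PLCB4 on chromosome 20 did not share 1 direction. Within 1.5 megabases of PLCB4, 12 other protein-coding genes are annotated, 10 are in the table and 6 were tested. The tested genes nearest by 5' end lay at -992 kb (PLCB1) and 1365 kb (MKKS) from the start of PLCB4. Genes that start closer to PLCB4 are therefore not covered. Besides PLCB1, the genes TMX4, MKKS and SLX4IP had log2 fold changes of 0.05, 0.08 and 0.07 and were not called. JAG1, a Notch ligand that starts 1605 kb downstream of the start of PLCB4, fell by 0.64 on the log2 scale (adjusted p = 2.38e-12). HAO1, a peroxisomal oxidase of liver, rose on 32 to 50 counts in shControl and 58 to 92 in shCK5-22 (log2 fold change 0.73, adjusted p = 0.0197), and the call was lost without shControl replicate 1 (0.0684), shCK5-22 replicate 1 (0.0827) or shCK5-22 replicate 3 (0.063). The 2 genes that follow PLCB4, LAMP5 with 0 to 2 counts and PAK5 with 2 to 10 counts per library, were too low to test, and ANKEF1 and SNAP25 were listed at 0.

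**Figure D5:**
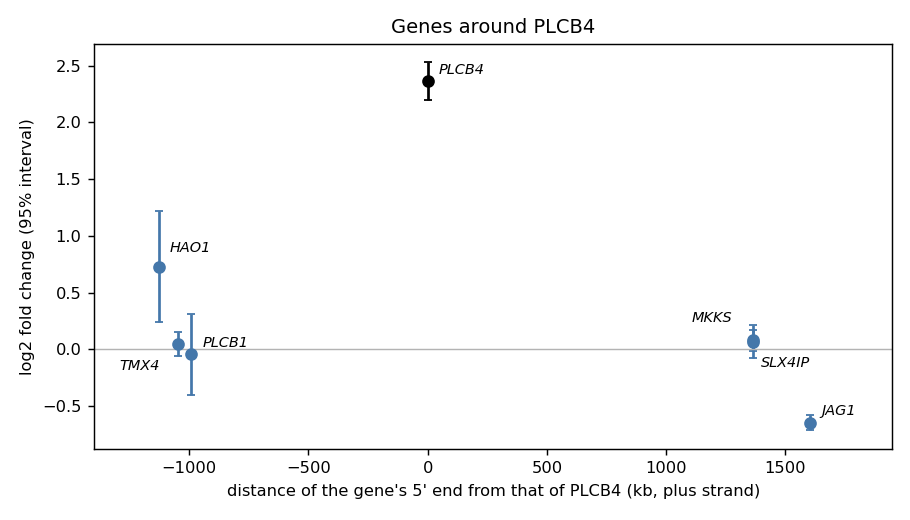
Log2 fold change of the tested genes on chromosome 20 by the distance of their start from the start of PLCB4, in kilobases, with 95% intervals as vertical lines. PLCB4, chosen by its rise, stands at 2.36, the other genes lie between -0.64 and 0.73, and no other gene comes near it.

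The genes whose pattern over the 6 libraries was most like that of PLCB4 were sought among 10458 genes with a mean of at least 5 CPM, by the root mean square distance between log2 levels centred on each gene's shControl mean. The nearest were IGFN1 at a distance of 0.171, COL6A2, a collagen VI chain, at 0.245, CHN1 at 0.325, COL27A1, a fibrillar collagen chain, at 0.371, and ANXA6, a calcium-dependent phospholipid-binding annexin, at 0.386. ANXA6 (chromosome 5, 151100712 to 151157882, minus strand) had 5.20, 6.13 and 4.92 CPM in shControl and 18.9, 19.7 and 18.9 CPM in shCK5-22. The distances are a description over 6 libraries of 2 groups, and the order mainly ranks genes by how near their rise came to that of PLCB4. The nearest isoform was PLCD3 at place 425 with a distance of 1.40. PLCE1 followed at place 7302, PLCB3 at 7434, PLCG1 at 9073 and PLCG2 at 10250, and the remaining isoforms were below 5 CPM.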

How the data were processed

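For the 6 BT20 libraries, the authors deposited raw read counts, 1 whole number for each gene symbol. Per the submitters' processing notes, cutadapt, STAR, SAMtools, Cufflinks and the build GRCh38 were used. The sources used here do not name the counting tool, its annotation, or how it treated strand and multi-mapping reads. Of 56505 rows, 27 held a calendar date instead of a symbol and were left out (0.167% to 0.175% of counts). Of the values from 1 to 10, 89.7% were even, as when both mates of a pair are counted, but the cause was not tested.

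Groups and replicate numbers came from the titles. The fit used edgeR 4.0.16 (R 4.3.3): TMM, filterByExpr, robust quasi-likelihood test, two-sided p-values adjusted by Benjamini-Hochberg over 18008 genes, threshold 0.05. It was also run on simulated counts with the same dispersion for every gene and no outlying library. That run does not show its error rates in these data. No label says that replicates were separate cultures, and p-values then reflect only the spread among these libraries, possibly a technical one. Floors cover counting error only. The isoforms, gene lists and markers were chosen with earlier results of these data known. Genes named per list are the 3 with the largest change among those called whose mean reached 1 CPM, and the isoforms, relatives, neighbours and marker genes are named by list. Summed endothelial markers were at 23.9 to 31.6 CPM in shControl and 19.5 to 31.8 CPM in shCK5-22 (1 of 5 tested lower), and fibroblast markers at 31.4 to 32.8 and 28.1 to 29.4 CPM (2 of 3 tested higher, 1 lower). Loci and exon lengths come from GENCODE release 29 (GRCh38), and sequences from its transcripts. Alternatives were other scalings and filters, DESeq2 1.42.0, limma-voom (limma 3.58.1), a threshold of 0.01, a replicate block, each library left out and, chosen after seeing the data, halved counts.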

Additional observations from a re-analysis of the deposited data

How the results depend on the processing

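PLCB2, PLCG1, PLCG2, PLCD1 and PLCD3 kept their direction and their call under every alternative that tested them, PLCB4 kept its direction, and no called gene that is named changed direction. PLCB2 was not tested under the filter of at least 1 CPM in 3 libraries. The number of genes changed was 6153 as reported, 5855 with DESeq2, 6096 with limma-voom, 4382 at a threshold of 0.01 and 6151 with halved counts, and it lay between 4910 and 6185 when 1 library was left out. The number of chromosome 20 neighbours called higher went from 1 to 0 with the filter of at least 1 CPM in 3 libraries and at a threshold of 0.01, and lay between 0 and 1 when 1 library was left out. In each case HAO1 was the gene concerned. Among the lists, the genes of inositol trisphosphate receptors and metabolism called lower went from 0 to 2 and those of diacylglycerol removal from 1 to 3 without shCK5-22 replicate 1.

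Replicate numbers showed no sign of pairing the libraries over all genes tested. Deviations from the group means correlated at 0.0142, 0.0392 and -0.000667 for the same numbers, and between -0.0456 and 0.0306 for different numbers. Such correlations can miss a pairing that touches few genes. With a replicate block, 6743 genes changed, the isoforms had the same calls, and PLCXD3 was called lower (adjusted p = 0.00732). The depth limits PLCB2, PLCH1 and PLCB1, whose intervals are the widest of the isoforms.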
